A study of Mus musculus with 4 samples.

Results

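Expression of 9 secreted modulators of Wnt signalling was followed through the stromal cell types of mouse bone marrow. The 9 genes, of 27998 listed in the count matrices, were chosen by name as secreted Wnt antagonists and agonists: the secreted frizzled-related proteins Sfrp1, Sfrp2, Sfrp4, Sfrp5 and Frzb, the Dickkopf genes Dkk2 and Dkk3, the Wnt inhibitory factor Wif1, and the R-spondin Rspo3. Their levels were read in 6 cell types that were set by other genes, so that the members played no part in placing a cell. Wnt proteins act over short distances between neighbouring cells, and secreted frizzled-related proteins and Wif1 are known to bind them outside the cell. Most Dickkopf proteins bind the co-receptors Lrp5 and Lrp6, whereas R-spondins bind Lgr receptors and keep frizzled receptors at the cell surface, which raises the response to Wnt. In bone and cartilage, the balance of these factors is known to bear on osteoblast formation, on cartilage maturation and on the marrow niche.

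The data were 4 single-cell RNA libraries, 1 per group, from C57BL/6 mice. NHD13Tg mice, which carry a Nup98-HoxD13 fusion transgene and model myelodysplastic syndrome (MDS), a disorder of ineffective blood formation, were set against WT_A1, a library of wild-type mice. Mice of the other MDS model, labelled Abcg2-MDS/AML, were set against the wild-type library named Control, and both pairings rest on the names in the labels. In the established NHD13 line the fusion is driven by regulatory elements of Vav1, a gene of blood cells. How Abcg2 was brought into the Abcg2-MDS/AML mice, and the age, sex and number of animals behind each library, could not be read from the labels. All 4 groups shared the same isolation: femora and tibiae were crushed and digested with collagenase, and cells without CD45, TER119 and CD31 but with CD140a and CD51 were sorted. Each count is a unique molecular identifier (UMI), that is, 1 captured molecule read at its 3' end, so levels are given as CPM, the UMIs of a gene scaled to a common total of 1000000 UMIs per cell type and library, with no correction for length.

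Cells numbered 5766 in NHD13Tg and 4973 in WT_A1, with 5586 in Abcg2-MDS/AML and 5158 in Control, at a median of 4186 to 5452 UMIs per cell and 36133716 to 46033790 UMIs per matrix. A cell was a barcode with at least 2000 UMIs, at least 500 genes and at most 10% mitochondrial UMIs. Between 6 and 14 cell barcodes were shared by any pair of libraries, at most 0.251% of the smaller one. With 1 library per group, differences within a pair have no replicate check, and their 95% intervals cover counting error only.

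The types were set on UMIs per 10000. Mesenchymal stromal cells (MSCs) had at least 10 from Adipoq, Lepr and Esm1, osteoblasts at least 100 from Bglap and Bglap2, chondrocytes at least 15 from Col9a1, Col9a2 and Col9a3, and fibroblasts at least 8 from Dpt, Clec3b and Col14a1. Chil1 cells had at least 25 from Chil1, and tendon cells at least 30 from Thbs4 and Myoc. MSCs numbered 1902 in NHD13Tg and 694 in WT_A1, with 189 in Abcg2-MDS/AML and 431 in Control. Chondrocytes were all but absent from one pair, at 6 in NHD13Tg and 4 in WT_A1 against 832 in Abcg2-MDS/AML and 1048 in Control. Osteoblasts numbered 145 in NHD13Tg and 109 in WT_A1, with 8 in Abcg2-MDS/AML and 69 in Control, and Chil1 cells 39, 25, 547 and 84 in the same libraries. Fibroblast and tendon rules often took the same cell: 635 NHD13Tg cells and 767 WT_A1 cells met both, as did 125 cells each in Abcg2-MDS/AML and Control. Many Chil1 cells also met a further rule, at 59.0% in NHD13Tg, 44% in WT_A1, 26.9% in Abcg2-MDS/AML and 59.5% in Control. The chondrocyte rule took 43 of the 547 Chil1 cells in Abcg2-MDS/AML and 32 of the 84 in Control, so Chil1 levels mix in these cells unequally.

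Markers that the rules did not use were at least 2-fold higher in the labelled type than in the other cells in most cases. Of 10 MSC markers, such as Cxcl12 and Kitl, 10 passed in NHD13Tg, WT_A1 and Control and 8 in Abcg2-MDS/AML, where the summed MSC markers stood at 7222 CPM against 31028 CPM in Control. Those Abcg2-MDS/AML MSCs also held 12994 CPM of the summed Mmp3, Prg4 and Clu, against 3828 CPM in Control MSCs. The 6 tendon markers passed in all 4 libraries, as did the 6 chondrocyte markers in Abcg2-MDS/AML and Control. Of the 3 markers for Chil1 cells, 2 passed in NHD13Tg, Abcg2-MDS/AML and Control and 1 in WT_A1, so these cells are named by their rule alone. Blood cells outside the 6 types, which should lack the members, numbered 437 in Control and 5 to 22 in the other libraries.

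The members differed between stromal types. UMIs were summed per type and library from cells meeting exactly 1 rule, in sums of at least 20 cells, and each type was set against the mean of the other 5 with the library as a block (edgeR quasi-likelihood, 19 sums, called at an adjusted p under 0.05 over 11909 genes). Neighbouring cell types in each member's order of mean levels were also compared directly. Those means covered 2 libraries for chondrocytes, 3 for osteoblasts and 4 for the other types. Of 54 combinations of a member and a type, 19 were higher, 12 were lower and 23 were not called, and each of the 9 members was higher in at least 1 type. The share of all genes higher in at least 1 type was not computed, so these totals are read only through the shares per type that follow. Fibroblasts were higher for 5 of the 9 and lower for 2, where 16% of all genes tested were called higher and 11.3% lower. MSCs were higher for 4 and lower for 3, against 24.3% and 20.1% of all genes, and tendon cells higher for 4 and lower for 0, against 11.9% and 5.56%. Chondrocytes were higher for 3 and lower for 4, against 19.8% and 13% of all genes. Chil1 cells, which entered from Abcg2-MDS/AML and Control, were higher for 3 and lower for 0, against 3.75% and 1.02% of all genes. Osteoblasts were higher for 0 of the 9 and lower for 3, against 18% and 17.7% of all genes. Of 45 pairs of neighbours in the members' orders, 11 differed (edgeR, adjusted p under 0.05). The orders were set on the same libraries, and no share over all genes ordered in this way was computed. The count therefore shows nothing particular to the members, and the share of all genes is given below with each pair of types that differed.

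**Figure D1:**
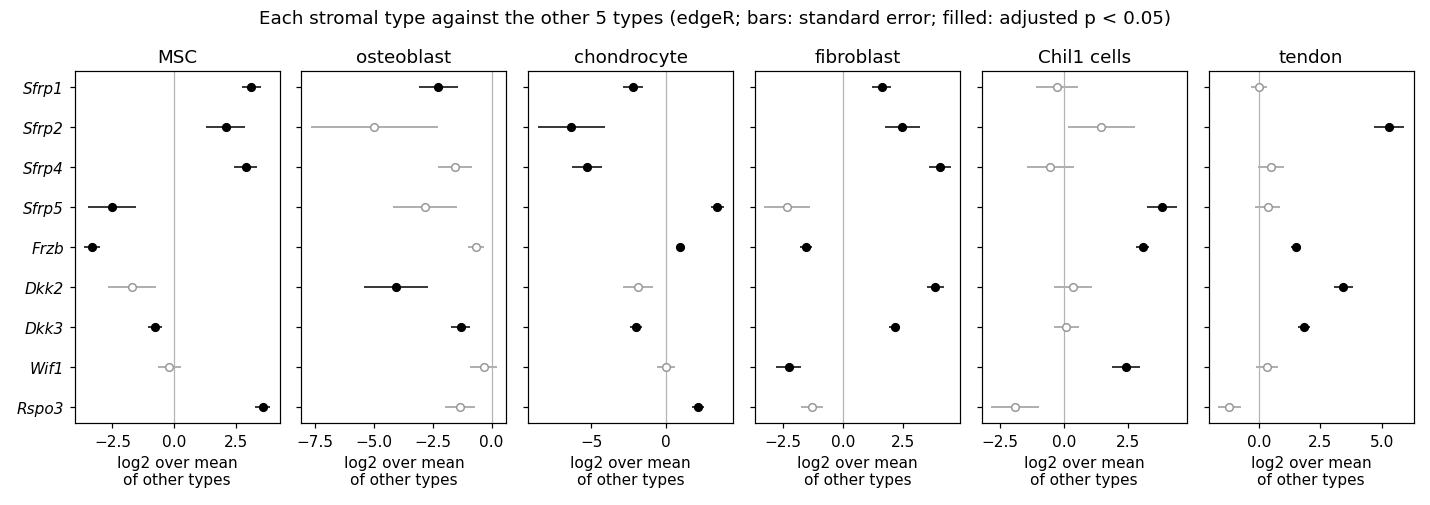
Log2 difference of each member in each of 6 stromal types over the mean of the other 5, from edgeR's quasi-likelihood test over 19 sums; filled points passed an adjusted p of 0.05 and bars are standard errors. Sfrp1, Sfrp4 and Rspo3 lie highest in MSCs or fibroblasts, Sfrp5, Frzb and Wif1 in Chil1 cells or chondrocytes, and Sfrp2, Dkk2 and Dkk3 in tendon cells or fibroblasts.

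Sfrp4, which encodes a secreted frizzled-related protein whose loss in humans thins cortical bone, was a gene of MSCs and fibroblasts. In MSCs it stood at 732 CPM in NHD13Tg and 743 CPM in WT_A1, with 48.4 CPM in Abcg2-MDS/AML and 451 CPM in Control. In fibroblasts it stood at 719 CPM in NHD13Tg and 600 CPM in WT_A1, with 518 CPM in Abcg2-MDS/AML and 376 CPM in Control. The fibroblast level was high in all 4 libraries, whereas the MSC level was low in Abcg2-MDS/AML alone. Chondrocytes held 1.41 CPM in Abcg2-MDS/AML and 4.62 CPM in Control. Over the other types, Sfrp4 was higher by a log2 of 4.03 ± 0.45 in fibroblasts (SE, edgeR, adjusted p = 4.7e-06) and 2.89 ± 0.48 in MSCs (edgeR, adjusted p = 0.00014), and lower in chondrocytes (log2 of -5.31, edgeR, adjusted p = 0.00078). Fibroblasts and MSCs, its first and second types by mean level, did not differ beyond their spread (edgeR, log2 0.95 ± 0.59, adjusted p = 0.22), while MSCs exceeded tendon cells, the third (edgeR, log2 2.01 ± 0.60, adjusted p = 0.013), as 20.2% of all genes did. Osteoblasts exceeded chondrocytes, the last type (edgeR, log2 3.12 ± 1.14, adjusted p = 0.047), as did 13.7% of all genes.

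Similar levels went with different shares of positive cells. At least 1 Sfrp4 UMI was found in 79.7% of NHD13Tg, 78.1% of WT_A1 and 67.5% of Control MSCs but in 37.5%, 36.9% and 23.7% of the fibroblasts of those libraries, while 6.86% of Control blood cells held one at a median depth of 24406 UMIs against 3583 UMIs in Control MSCs. With each cell thinned to 2000 UMIs, the MSC shares became 62.6%, 61.4% and 51.4%, and the Control blood share 0.526%. Sfrp4 was spread over most MSCs of these 3 libraries and held by fewer fibroblasts at more UMIs each: a positive fibroblast had 11.8 UMIs on average in NHD13Tg, 10.6 in WT_A1 and 7.03 in Control, and a positive MSC 4.54, 4.56 and 2.68. In Abcg2-MDS/AML, 10.1% of MSCs and 28.3% of fibroblasts were positive. In NHD13Tg, 308 of 1902 MSCs together held 50% of the Sfrp4 UMIs of that type, while 87 of 1796 fibroblasts did.

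Sfrp1, a secreted frizzled-related protein known to bind Wnt and to restrain bone formation in mice, also led in MSCs. It stood at 237 CPM in NHD13Tg and 97.4 CPM in WT_A1 MSCs, with 37.8 CPM in Abcg2-MDS/AML and 117 CPM in Control. Fibroblasts held 74.8 CPM in NHD13Tg and 108 CPM in WT_A1, with 56.6 CPM in Abcg2-MDS/AML and 29.5 CPM in Control. MSCs were the top type in NHD13Tg and Control and fibroblasts in WT_A1 and Abcg2-MDS/AML. Sfrp1 was higher by a log2 of 3.13 ± 0.40 in MSCs (SE, edgeR, adjusted p = 9.7e-06) and 1.62 ± 0.41 in fibroblasts (edgeR, adjusted p = 0.0075). Without WT_A1 the fibroblast call was lost, at a log2 of 1.24 (edgeR, adjusted p = 0.092). MSCs stood above fibroblasts directly (edgeR, log2 1.26 ± 0.46, adjusted p = 0.036), as did 20.9% of all genes. The lower call in osteoblasts (log2 of -2.26, edgeR, adjusted p = 0.041) was lost without any one library, with adjusted p of 0.13, 0.16, 1 and 0.085 without NHD13Tg, WT_A1, Abcg2-MDS/AML and Control in turn (edgeR). That in chondrocytes (log2 of -2.22, edgeR, adjusted p = 0.020) was lost without Abcg2-MDS/AML (-0.14, edgeR, adjusted p = 1) or Control (-2.52, edgeR, adjusted p = 0.068).

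Sfrp2, a close relative of Sfrp1 with known roles in mesenchymal repair, had its highest mean in tendon cells. It stood there at 176 CPM in NHD13Tg and 353 CPM in WT_A1, with 45.8 CPM in Abcg2-MDS/AML and 46.1 CPM in Control. Tendon cells were the top type in NHD13Tg, WT_A1 and Control, and fibroblasts in Abcg2-MDS/AML at 50.8 CPM. Over the other types tendon cells were higher by a log2 of 5.30 ± 0.61 (SE, edgeR, adjusted p = 1.8e-05), and they exceeded fibroblasts, the second type, by 2.36 ± 0.64 (edgeR, adjusted p = 0.033), as did 3.69% of all genes. Few cells carried this signal. In WT_A1, 13.2% of tendon cells had a Sfrp2 UMI, with 15.9 UMIs per positive cell, and 13 of 1290 cells held 50% of the UMIs. The corresponding numbers were 18 of 1152 cells in NHD13Tg, 7 of 1105 in Abcg2-MDS/AML and 2 of 651 in Control, where a single cell held 48.6% of the UMIs. The tendon call held under each alternative tried. None of these left out cells by their Sfrp2 UMIs, so they cannot show whether the call rests on those few cells. Fibroblasts (log2 2.47 ± 0.73, edgeR, adjusted p = 0.018) lost their call without Abcg2-MDS/AML (1.70, edgeR, adjusted p = 0.21) or Control (2.89, edgeR, adjusted p = 0.081). The call in MSCs (log2 2.09 ± 0.80, edgeR, adjusted p = 0.043) was lost without NHD13Tg (1.38, edgeR, adjusted p = 0.31) or Control (2.23, edgeR, adjusted p = 0.22). In chondrocytes the lower call (log2 of -6.35, edgeR, adjusted p = 0.040) rested on 1 and 18 UMIs and was lost without NHD13Tg (-6.29, edgeR, adjusted p = 0.10), Abcg2-MDS/AML (-5.27, edgeR, adjusted p = 0.20) or Control (-8.34, edgeR, adjusted p = 0.14).

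Cells split by the fibroblast and tendon rules separated these relatives. Sfrp4 was highest in cells meeting the fibroblast rule alone in all 4 libraries, at 871 CPM in NHD13Tg, 667 CPM in WT_A1, 614 CPM in Abcg2-MDS/AML and 466 CPM in Control, against 205, 260, 40.4 and 21.6 CPM in cells meeting the tendon rule alone. Sfrp1 was highest in cells meeting both rules in all 4, at 119 CPM in NHD13Tg, 166 CPM in WT_A1, 85.1 CPM in Abcg2-MDS/AML and 50.9 CPM in Control. Sfrp2 was highest in cells meeting the tendon rule alone in NHD13Tg at 232 CPM, in WT_A1 at 640 CPM and in Control at 51.9 CPM, but in cells meeting both rules in Abcg2-MDS/AML at 79.3 CPM. These are values of single libraries with no test.

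**Figure D2:**
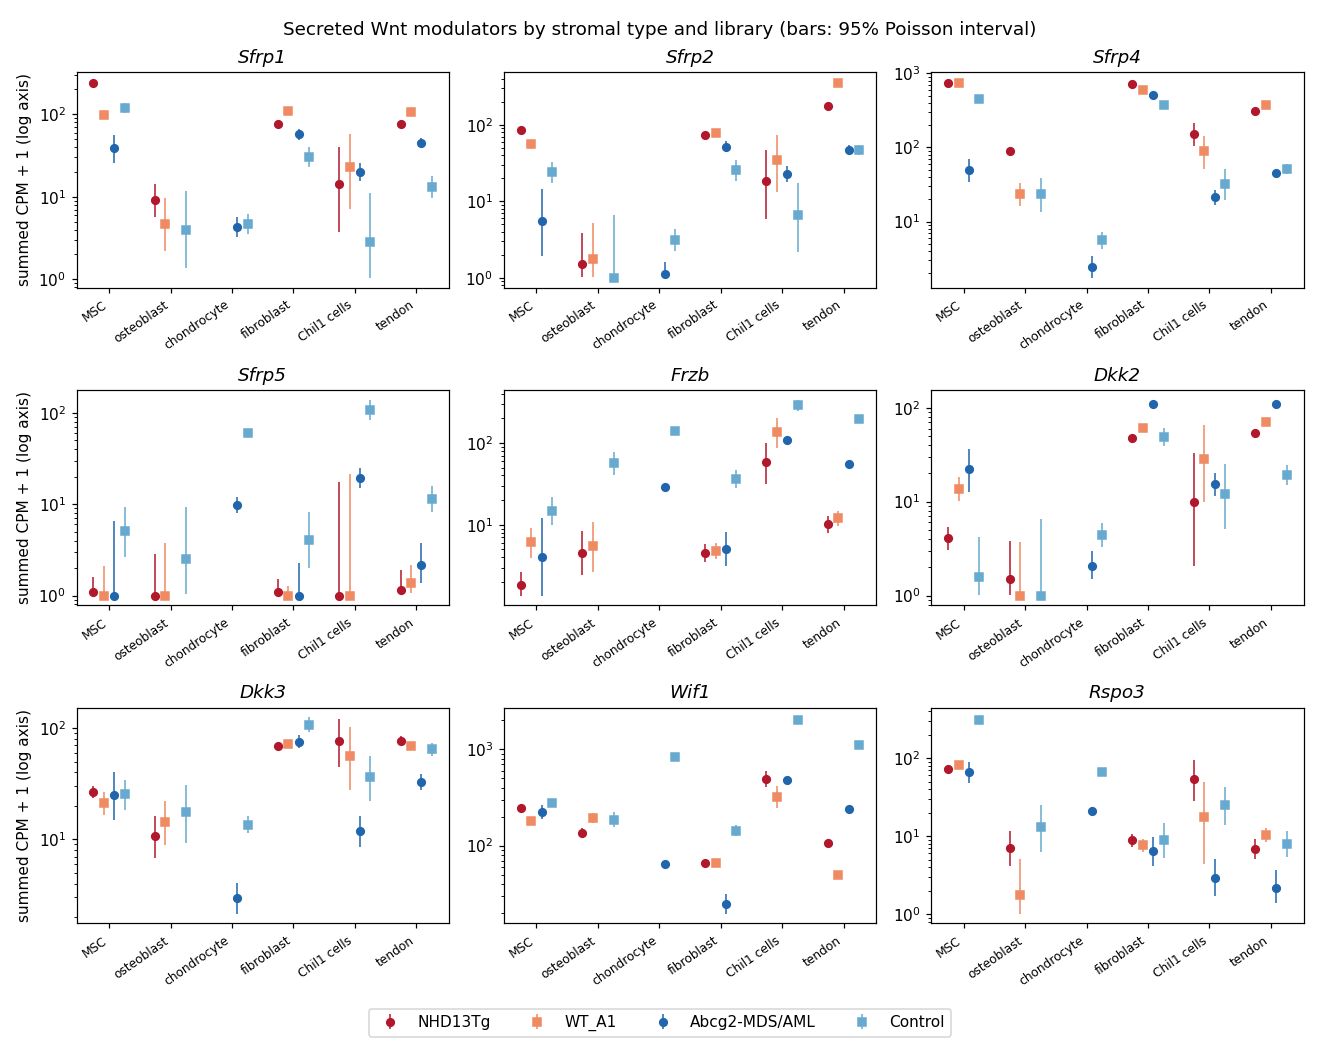
CPM of the 9 members by stromal type, 1 point per library on a log axis of CPM + 1, with 95% counting intervals and sums of at least 20 cells. Sfrp4 reaches 719 CPM in NHD13Tg fibroblasts, Wif1 reaches 2010 CPM in Control Chil1 cells, and Sfrp2 falls to 1 UMI or less in WT_A1 and Control osteoblasts.

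Sfrp5, Frzb and Wif1 were called higher in Chil1 cells. Sfrp5 is a secreted frizzled-related protein best known from fat tissue, and Frzb is a secreted frizzled-related protein first purified from cartilage. Their start-site windows, 250 bases before to 50 after the start, are shown with that of Wif1 because they share this call. The sequences are RefSeq's for build GRCm38.p6, printed 5' to 3' on the gene's strand, with matches in capitals to CTTTGA or CTTTGT, the core of TCF/LEF sites, and to TGTGGT, the core of RUNX sites, searched on both strands. Sfrp5 lies on the minus strand at chr19:42202203-42202502, Frzb on the minus strand at chr2:80447347-80447646, and Wif1 on the plus strand at chr10:121033754-121034053.
Sfrp5: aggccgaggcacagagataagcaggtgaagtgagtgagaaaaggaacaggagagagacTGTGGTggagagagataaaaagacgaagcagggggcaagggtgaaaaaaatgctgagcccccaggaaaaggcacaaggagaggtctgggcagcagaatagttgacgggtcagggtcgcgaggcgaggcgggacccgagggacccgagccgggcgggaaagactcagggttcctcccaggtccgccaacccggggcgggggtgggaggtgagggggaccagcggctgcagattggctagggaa
Frzb: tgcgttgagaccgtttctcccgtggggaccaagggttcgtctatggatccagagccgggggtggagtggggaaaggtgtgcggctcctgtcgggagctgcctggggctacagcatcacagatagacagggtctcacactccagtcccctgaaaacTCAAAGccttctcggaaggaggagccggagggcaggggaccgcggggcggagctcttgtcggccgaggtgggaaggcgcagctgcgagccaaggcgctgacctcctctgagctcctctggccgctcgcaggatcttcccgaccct
Wif1: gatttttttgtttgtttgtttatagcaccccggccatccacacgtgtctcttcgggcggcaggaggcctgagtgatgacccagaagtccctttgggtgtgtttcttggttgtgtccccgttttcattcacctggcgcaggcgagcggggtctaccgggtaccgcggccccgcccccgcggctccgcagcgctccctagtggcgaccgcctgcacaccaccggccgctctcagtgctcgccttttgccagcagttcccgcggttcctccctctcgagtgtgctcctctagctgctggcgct
The Sfrp5 window held 1 RUNX core on the strand shown, and the Frzb window 1 TCF/LEF core on the other strand. The Wif1 window held neither set of letters. A TCF/LEF core stood in 31.3% of the 27025 windows of all genes and a RUNX core in 16.9% and no window shown held more than 1 match. GC content was 61.3% for Sfrp5, 64.7% for Frzb and 63% for Wif1, above the median of 52.7% over all windows.

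Sfrp5 was called higher in chondrocytes and Chil1 cells. In chondrocytes it stood at 8.87 CPM in Abcg2-MDS/AML and 58.3 CPM in Control, and in Chil1 cells at 18.4 CPM in Abcg2-MDS/AML and 107 CPM in Control. MSCs, fibroblasts and tendon cells held between 0 and 5 UMIs each in NHD13Tg, WT_A1 and Abcg2-MDS/AML, and no Sfrp5 UMI was found in the 39 NHD13Tg and 25 WT_A1 Chil1 cells. Control held 33 UMIs in tendon cells, 7 in MSCs and 5 in fibroblasts. Sfrp5 was higher by a log2 of 3.44 ± 0.44 in chondrocytes (SE, edgeR, adjusted p = 2.2e-05) and 3.85 ± 0.60 in Chil1 cells (edgeR, adjusted p = 0.0016), and these types did not differ beyond their spread (edgeR, log2 of -0.35 ± 0.51 for chondrocytes over Chil1 cells, adjusted p = 0.78). Chil1 cells exceeded tendon cells, the third type (edgeR, 2.92 ± 0.63, adjusted p = 0.019), as did 1.92% of all genes, and tendon cells exceeded MSCs (edgeR, 2.39 ± 0.85, adjusted p = 0.033), as did 20.1% of all genes. The Chil1 call was lost without Abcg2-MDS/AML, at 2.11 (edgeR, adjusted p = 0.37). The lower call in MSCs (log2 of -2.51, edgeR, adjusted p = 0.048) was lost without NHD13Tg (-2.59, edgeR, adjusted p = 0.094), WT_A1 (-2.46, edgeR, adjusted p = 0.079) or Control (-3.52, edgeR, adjusted p = 1).

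Frzb had its highest mean in Chil1 cells. It stood there at 57.4 CPM in NHD13Tg and 133 CPM in WT_A1, with 107 CPM in Abcg2-MDS/AML and 288 CPM in Control. In chondrocytes it stood at 27.9 CPM in Abcg2-MDS/AML and 138 CPM in Control. Tendon cells fell into separate levels by pair, at 9.13 CPM in NHD13Tg and 10.9 CPM in WT_A1 but 54.0 CPM in Abcg2-MDS/AML and 197 CPM in Control. Over the other types Frzb was higher by a log2 of 3.09 ± 0.26 in Chil1 cells (SE, edgeR, adjusted p = 1.4e-05), 1.49 ± 0.20 in tendon cells (edgeR, adjusted p = 6.3e-05) and 0.96 ± 0.25 in chondrocytes (edgeR, adjusted p = 0.0076). It was lower by 3.34 ± 0.32 in MSCs (log2 of -3.34, edgeR, adjusted p = 3.9e-07) and by 1.54 ± 0.25 in fibroblasts (log2 of -1.54, edgeR, adjusted p = 0.00025). Chil1 cells exceeded chondrocytes, the second type by mean level (edgeR, log2 1.78 ± 0.32, adjusted p = 0.0042), as did 2.49% of all genes. That mean covered Abcg2-MDS/AML and Control only, and in both of them tendon cells stood above chondrocytes. Chondrocytes over tendon cells had a log2 of -0.45 ± 0.29 (edgeR, adjusted p = 0.26). Tendon cells exceeded osteoblasts (edgeR, 1.80 ± 0.35, adjusted p = 0.00084), as did 18.2% of all genes, and fibroblasts exceeded MSCs (edgeR, adjusted p = 0.0044), as did 20% of all genes. The chondrocyte call was lost at a minimum of 4000 UMIs (0.62, edgeR, adjusted p = 0.11), with thresholds times 1.5 (0.69, edgeR, adjusted p = 0.12), with library totals (0.69, edgeR, adjusted p = 0.051) and in DESeq2 (0.97, adjusted p = 0.052). With no library block the calls in chondrocytes (1.72, edgeR, adjusted p = 0.14), tendon cells (1.32, edgeR, adjusted p = 0.28) and fibroblasts (-2.06, edgeR, adjusted p = 0.12) were lost. The Frzb level of cells meeting the tendon rule alone was above that of cells meeting the fibroblast rule in all 4 libraries, at 18.2, 23.1, 61.2 and 231 CPM against 4.08, 4.44, 4.52 and 40.1 CPM with the fibroblast rule alone in NHD13Tg, WT_A1, Abcg2-MDS/AML and Control.

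The share of Chil1 cells with a Frzb UMI was 25.6% in Abcg2-MDS/AML at a median of 5086 UMIs and 59.5% in Control at 6478 UMIs, against 4.81% of Control blood cells at 24406 UMIs. Thinned to 2000 UMIs per cell, these shares were 14.0%, 35.7% and 0.687%. In MSCs the thinned share was 0.0961% in NHD13Tg, 0.603% in WT_A1, 0.824% in Abcg2-MDS/AML and 1.67% in Control, below the Control blood share in NHD13Tg and WT_A1 and above it in Abcg2-MDS/AML and Control.

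Among the stromal types, Dkk2 and Dkk3 were called higher in fibroblasts and tendon cells. Dkk2, whose protein binds Lrp6 and can inhibit or, in some settings, activate Wnt signalling, stood in fibroblasts at 47.0 CPM in NHD13Tg and 59.6 CPM in WT_A1, with 108 CPM in Abcg2-MDS/AML and 47.9 CPM in Control. In tendon cells it stood at 52.4 CPM in NHD13Tg and 69.8 CPM in WT_A1, with 108 CPM in Abcg2-MDS/AML and 18.3 CPM in Control. Both types overlapped across libraries, while osteoblasts held 1 UMI in NHD13Tg and 0 in the other 3 libraries, of which Control had 69 osteoblasts. Dkk2 was higher by a log2 of 3.85 ± 0.37 in fibroblasts (SE, edgeR, adjusted p = 8.6e-07) and 3.44 ± 0.38 in tendon cells (edgeR, adjusted p = 1.1e-05), without a difference beyond the spread between them (edgeR, 0.35 ± 0.35, adjusted p = 0.68). Its lower call in osteoblasts (log2 of -4.06, edgeR, adjusted p = 0.030) was lost without NHD13Tg (-7.15, edgeR, adjusted p = 0.12) or WT_A1 (-3.59, edgeR, adjusted p = 0.13). Cells meeting both the fibroblast and the tendon rule held the most Dkk2 in all 4 libraries: 68.6 CPM in NHD13Tg, 100 CPM in WT_A1, 203 CPM in Abcg2-MDS/AML and 52.8 CPM in Control. The Dkk2 window of RefSeq, on the plus strand of GRCm38.p6 at chr3:132085042-132085341, is shown for comparison with those of Sfrp5, Frzb and Wif1 and held 1 TCF/LEF core on the strand shown.
Dkk2: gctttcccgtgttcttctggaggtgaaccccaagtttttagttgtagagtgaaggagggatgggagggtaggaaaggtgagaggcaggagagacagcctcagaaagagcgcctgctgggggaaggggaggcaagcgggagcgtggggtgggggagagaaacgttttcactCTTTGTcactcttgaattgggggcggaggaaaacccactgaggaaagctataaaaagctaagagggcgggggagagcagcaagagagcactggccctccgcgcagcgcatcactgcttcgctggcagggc
Its GC content was 57.7%, below that of the other 4 windows, while Sfrp2 at 66% had the highest and held neither motif.

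Dkk3, a divergent Dickkopf gene, was spread over more types than Dkk2. In fibroblasts it stood at 67.7 CPM in NHD13Tg and 70.5 CPM in WT_A1, with 74.5 CPM in Abcg2-MDS/AML and 106 CPM in Control. Tendon cells held 76.2 CPM in NHD13Tg and 67.9 CPM in WT_A1, with 31.8 CPM in Abcg2-MDS/AML and 63.1 CPM in Control. MSCs kept within 20.1 to 25.9 CPM in all 4 libraries. Cells meeting no type rule held 32.9% of the Dkk3 UMIs in NHD13Tg and 39.9% in WT_A1, with 52.5% in Abcg2-MDS/AML and 59.3% in Control. They made up 25.8%, 32.3%, 45.7% and 53.9% of the cells in the same libraries. The type test left these cells out. Dkk3 was higher by a log2 of 2.16 ± 0.23 in fibroblasts (SE, edgeR, adjusted p = 2.9e-06) and 1.84 ± 0.24 in tendon cells (edgeR, adjusted p = 4.6e-05), and lower by 2.01 ± 0.39 in chondrocytes (log2 of -2.01, edgeR, adjusted p = 0.00095). The lower calls in osteoblasts (log2 of -1.31, edgeR, adjusted p = 0.021) and MSCs (-0.78, edgeR, adjusted p = 0.043) did not hold: leaving out NHD13Tg, WT_A1 or Control ended each, with adjusted p of 0.10, 0.085 and 0.12 in osteoblasts and 0.066, 0.19 and 0.38 in MSCs (edgeR).

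Wif1, which encodes a secreted inhibitor that binds Wnt through its own WIF domain, reached the highest level of any member. In Chil1 cells it stood at 490 CPM in NHD13Tg and 321 CPM in WT_A1, with 483 CPM in Abcg2-MDS/AML and 2010 CPM in Control. Chondrocytes held 63.3 CPM in Abcg2-MDS/AML and 835 CPM in Control, and tendon cells 238 CPM in Abcg2-MDS/AML and 1094 CPM in Control. In the other pair, tendon cells held 104 CPM in NHD13Tg and 48.8 CPM in WT_A1, so Control was the highest library in each of these 3 types. Wif1 was higher by a log2 of 2.44 ± 0.55 in Chil1 cells (SE, edgeR, adjusted p = 0.017) and lower by 2.25 ± 0.53 in fibroblasts (log2 of -2.25, edgeR, adjusted p = 0.0047). The Chil1 call was lost without Abcg2-MDS/AML (2.26, edgeR, adjusted p = 0.24) or Control (2.47, edgeR, adjusted p = 0.053), and with sums of at least 50 cells (2.69, edgeR, adjusted p = 0.094). Its order of mean levels ran from Chil1 cells through chondrocytes, tendon cells, MSCs and osteoblasts to fibroblasts. No neighbouring types in this order differed beyond their spread, the closest being osteoblasts over fibroblasts (edgeR, log2 1.59 ± 0.61, adjusted p = 0.052). In Abcg2-MDS/AML and Control, the 2 libraries behind the chondrocyte mean, tendon cells stood above chondrocytes.

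Wif1 was also common in free RNA, measured in barcodes of 1 to 100 UMIs, at 239 CPM in NHD13Tg and 157 CPM in WT_A1, with 172 CPM in Abcg2-MDS/AML and 556 CPM in Control. The level in MSCs, at 244 CPM in NHD13Tg, 179 CPM in WT_A1, 223 CPM in Abcg2-MDS/AML and 273 CPM in Control, was above it by less than a factor of 2 in NHD13Tg, WT_A1 and Abcg2-MDS/AML and below it in Control. Blood cells of Control held 28.0 CPM of Wif1, and 10.5% of them had a UMI at a median of 24406 UMIs, against 35.3% of Control MSCs at 3583 UMIs. Thinned to 2000 UMIs, the shares were 26.1% of Control MSCs and 2.94% of blood cells. In Chil1 cells the thinned share was 36.3% in NHD13Tg, 24.8% in WT_A1, 44.5% in Abcg2-MDS/AML and 83.4% in Control.

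Rspo3, the one agonist of the 9, was a gene of MSCs. It stood at 72.1 CPM in NHD13Tg and 80.0 CPM in WT_A1 MSCs, with 65.1 CPM in Abcg2-MDS/AML and 303 CPM in Control. Chondrocytes came second, at 19.7 CPM in Abcg2-MDS/AML and 65.0 CPM in Control, and fibroblasts held 5.42 to 7.99 CPM in the 4 libraries. The level in Control MSCs was far above the other 3, which lay close together. Rspo3 was higher by a log2 of 3.59 ± 0.31 in MSCs (SE, edgeR, adjusted p = 1.4e-07) and 2.14 ± 0.41 in chondrocytes (edgeR, adjusted p = 0.00078), and both calls held under each alternative tried. MSCs exceeded chondrocytes (edgeR, log2 1.20 ± 0.44, adjusted p = 0.038), as did 21% of all genes, and chondrocytes exceeded Chil1 cells (edgeR, log2 3.39 ± 0.87, adjusted p = 0.032), as did 2.99% of all genes. Free RNA held 14.1 CPM in NHD13Tg, 20.7 CPM in WT_A1, 11.7 CPM in Abcg2-MDS/AML and 50.7 CPM in Control, below the MSC level in each library. With cells thinned to 2000 UMIs, 40.4% of Control MSCs had a UMI, against 0.149% of Control blood cells.

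Set side by side, the types differed in which of the 9 members supplied the most UMIs among them. Secreted modulators outside the 9 do not enter these shares. In MSCs, Igfbp4 had a mean of 3422 CPM, where Sfrp4 had 494 CPM. Sfrp4 supplied 52.3% of the UMIs of the 9 members in NHD13Tg MSCs, 62.3% in WT_A1 MSCs and 37.3% in Control MSCs, but 11.3% in Abcg2-MDS/AML MSCs, where Wif1 supplied 52.1%. In fibroblasts Sfrp4 led in all 4 libraries with 67.9% in NHD13Tg, 60.6% in WT_A1, 61.5% in Abcg2-MDS/AML and 48.6% in Control. Wif1 led in Chil1 cells with 46.0% to 80.0%, and in chondrocytes with 49.6% in Abcg2-MDS/AML and 74.4% in Control. Over all cells meeting the tendon rule, the leading member changed with the pair: Sfrp4 led with 38.0% in NHD13Tg and 36.3% in WT_A1, and Wif1 with 42.0% in Abcg2-MDS/AML and 73.0% in Control. Of these tendon cells, 635 in NHD13Tg and 767 in WT_A1 also met the fibroblast rule. In cells meeting the tendon rule alone, Sfrp2 stood above Sfrp4, at 232 against 205 CPM in NHD13Tg and 640 against 260 CPM in WT_A1. Wif1 led in such cells of Abcg2-MDS/AML at 263 CPM and of Control at 1299 CPM. The shares compare molecules captured at their 3' ends, and capture can differ between genes.

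**Figure D3:**
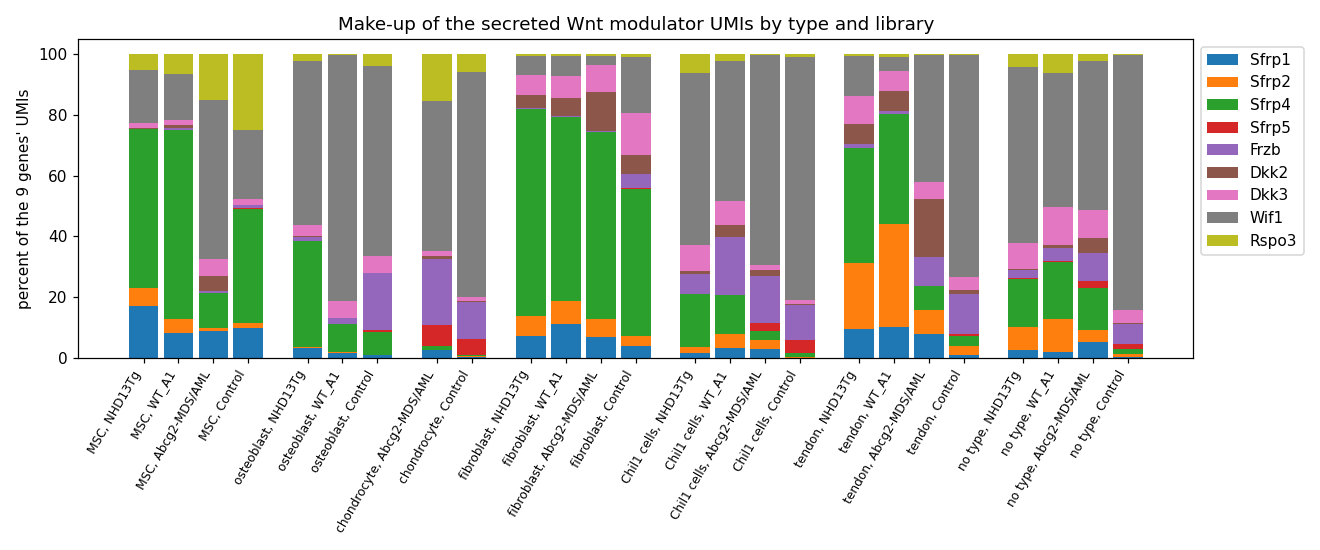
Share, in percent, of the UMIs of the 9 members that each member supplied, by stromal type and library. Sfrp4 supplies 67.9% in NHD13Tg fibroblasts and Wif1 74.4% in Control chondrocytes, and Abcg2-MDS/AML MSCs have more Wif1 (52.1%) than Sfrp4 (11.3%).

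Likeness of pattern was measured as Pearson's r of log2(CPM + 10) over 21 sums of a type and library. These sums share libraries and cells, so r is given as a description. Among the members, Sfrp1 and Sfrp4 were most alike (r = 0.86), followed by Sfrp1 and Sfrp2 (0.80), Frzb and Wif1 (0.77), Dkk2 and Dkk3 (0.73), Sfrp2 and Sfrp4 (0.73) and Sfrp5 and Frzb (0.71). Sfrp1 and Frzb were least alike (-0.61). Over 8216 other genes, the closest to Sfrp4 were Pdlim2 (0.95), Stat6 (0.95) and Epdr1 (0.93), and the closest to Sfrp1 were Mnda, Gsdmd and Mpdz (0.93 each). Sfrp2 lay closest to Acvrl1, Podn and Pak2 (0.85 to 0.86). Sfrp5 lay closest to Pcp4 (0.96), Ptgds (0.95) and Prkcz (0.94), and Frzb to Fxyd3 (0.92), Baiap2l1 (0.91) and Susd5 (0.90). Dkk2 lay closest to Gm28875 (0.95), Lama2, a laminin chain (0.94), and Cyp27a1 (0.94), and Dkk3 to Tspo (0.95), Cc2d2a and Mxra7 (0.93 each). Wif1 had the weakest neighbours, Lgr6, an R-spondin receptor (0.84), Dapl1 (0.81) and Klc3 (0.80). Rspo3 lay closest to Tmem51 (0.90), H3f3b and Ninl (0.89 each).

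In NHD13Tg against WT_A1, 5 combinations of a member and a type stood apart. A size rule, which is no test, took a gene where the libraries differed by 2-fold or more, the interval did not span 1, and either library had 20 CPM. Of 28 combinations of a member and a type that reached this level, 3 were higher and 2 lower in NHD13Tg. In MSCs Sfrp1 was higher, at 237 CPM in NHD13Tg and 97.4 CPM in WT_A1, a ratio of 2.44 (2.17 to 2.74), where 1.09% of 6169 genes were as much higher. With cells thinned to 2000 UMIs, 31.1% of NHD13Tg and 13.8% of WT_A1 MSCs had a Sfrp1 UMI, and free RNA held 71.7 CPM against 46.9 CPM. In tendon cells Wif1 was higher, at 104 CPM in NHD13Tg and 48.8 CPM in WT_A1, a ratio of 2.14 (1.88 to 2.44), where 0.41% of genes were higher. Free RNA had 239 CPM of Wif1 in NHD13Tg and 157 CPM in WT_A1, and its part in the result was not tested. In osteoblasts Sfrp4 stood at 87.7 CPM in NHD13Tg and 22.3 CPM in WT_A1, a ratio of 3.94 (2.66 to 6.02), where 1.56% of genes were higher and 2.54% lower. That value leaned on single cells: 1 osteoblast held 41.9% of the Sfrp4 UMIs in NHD13Tg and 1 held 40% in WT_A1. Without the top 5% of cells by UMIs the log2 ratio was 1.07, against 1.98 with them. That of Wif1 in tendon cells was 0.65 with type thresholds divided by 1.5 and 1.52 for cells meeting exactly 1 rule, against 1.10.

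The lower calls in NHD13Tg were Sfrp2 in tendon cells and Frzb in Chil1 cells. Neither passed the size rule at a minimum of 1000 UMIs. Sfrp2 also fell short of it with type thresholds times or divided by 1.5, and without the cell holding the most Sfrp2 UMIs in each library. Frzb fell short without the top 5% of cells by UMIs, while thresholds times 1.5 left too few Chil1 cells for a value. Sfrp2 stood at 176 CPM in NHD13Tg and 353 CPM in WT_A1 tendon cells, a ratio of 0.50 (0.46 to 0.54), just inside the size rule, where 0.802% of genes were as much lower. For cells meeting exactly 1 rule the log2 ratio was -1.52. Free RNA moved the same way, at 62.4 CPM in NHD13Tg against 116 CPM in WT_A1. Sfrp2 in cells meeting both the fibroblast and the tendon rule differed less, at 133 CPM in NHD13Tg and 151 CPM in WT_A1. Frzb rested on 13 UMIs in 39 NHD13Tg and 24 UMIs in 25 WT_A1 Chil1 cells, a ratio of 0.43 (0.20 to 0.88), where 3.36% of genes were lower and 2.53% higher. A single cell held 69.2% of the NHD13Tg UMIs. The log2 ratio of -1.21 became -0.31 at a minimum of 1000 UMIs and -2.14 without the cell holding the most Frzb UMIs in each library. In fibroblasts no member passed in either direction, where 0.375% of genes were higher and 0.679% lower. Sfrp4 in MSCs was close to equal, at 732 CPM in NHD13Tg and 743 CPM in WT_A1 (ratio 0.986, 0.942 to 1.03), as was Rspo3 at 72.1 CPM and 80.0 CPM (ratio 0.901, 0.781 to 1.04). The median member log2 ratio was 0.41 in MSCs, where all genes had -0.04, and -0.36 in tendon cells, where all genes had -0.05.

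In Abcg2-MDS/AML against Control, members were far apart and mostly lower. Of 32 combinations, 6 were higher and 17 lower. In MSCs 4 of the 7 members considered were lower and 1 higher, where 13% of 6488 genes were lower and 7.49% higher. Sfrp4 stood at 48.4 CPM in Abcg2-MDS/AML and 451 CPM in Control MSCs, 9.32-fold lower (ratio 0.107, 0.0729 to 0.153), while free RNA held 52.7 CPM and 37.5 CPM. Rspo3 stood at 65.1 CPM in Abcg2-MDS/AML and 303 CPM in Control, 4.65-fold lower (ratio 0.215, 0.154 to 0.294), and Sfrp1 at 37.8 CPM and 117 CPM, 3.09-fold lower (ratio 0.324, 0.205 to 0.492). Sfrp2 rested on 3 UMIs in Abcg2-MDS/AML and 40 in Control (ratio 0.196, 0.0388 to 0.616), and turned to higher, at a log2 of 0.91, with type thresholds divided by 1.5. The higher member was Dkk2, with 14 UMIs in Abcg2-MDS/AML and 1 in Control (ratio 36.6, 5.57 to 1548), a log2 of 5.19, and of 4.45 at a minimum of 1000 UMIs and 3.41 with thresholds times 1.5. These cells had fewer MSC markers by sum, at 7222 CPM in Abcg2-MDS/AML against 31028 CPM in Control. They had more tendon markers, at 2581 CPM against 206 CPM in Control, and more fibroblast markers, at 540 CPM against 160 CPM, and 19.0% of them met a further rule, against 3.48% in Control. The part of these markers in the MSC ratios was not tested. Restricted to cells meeting exactly 1 rule, the log2 ratio of Sfrp4 was -4.05, against -3.22 over all MSCs. It was -3.86 at a minimum of 4000 UMIs, where that of Rspo3 was -3.06, against -2.22, and -2.58 with thresholds divided by 1.5.

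In chondrocytes, the 4 members that reached 20 CPM were lower in Abcg2-MDS/AML, where 15% of 5021 genes were lower and 3.6% higher. Wif1 stood at 63.3 CPM in Abcg2-MDS/AML and 835 CPM in Control, 13.2-fold lower (ratio 0.0758, 0.0695 to 0.0825). Sfrp5 stood at 8.87 CPM in Abcg2-MDS/AML and 58.3 CPM in Control (6.58-fold lower), Frzb at 27.9 CPM and 138 CPM (4.95-fold lower), and Rspo3 at 19.7 CPM and 65.0 CPM (3.30-fold lower). The log2 ratio of Frzb was -2.31, and -3.04 with thresholds times 1.5. Without the top 5% of cells by UMIs that of Wif1 was -3.11, against -3.72, and that of Sfrp5 -2.06, against -2.72. Marker sums moved in the same cells: chondrocyte markers stood at 17215 CPM in Abcg2-MDS/AML and 33705 CPM in Control, Mmp3, Prg4 and Clu at 2876 CPM and 15912 CPM, and osteoblast markers at 1243 CPM and 6631 CPM. Their part in the chondrocyte ratios was not tested. In Chil1 cells 5 of 7 were lower and 1 higher, where 15% and 7.64% of genes were: Wif1 stood at 483 CPM in Abcg2-MDS/AML and 2010 CPM in Control (4.16-fold lower), Frzb at 107 CPM and 288 CPM (2.69-fold lower), and Sfrp5 at 18.4 CPM and 107 CPM (5.82-fold lower). Dkk3 (3.25-fold lower) and Rspo3 (12.6-fold lower, on 6 UMIs in Abcg2-MDS/AML and 13 in Control) completed the 5. Sfrp2 was the higher one, but 1 Abcg2-MDS/AML cell held 63.8% of its 69 UMIs, against 3 UMIs in Control. For Chil1 cells meeting exactly 1 rule, the log2 ratio of Sfrp5 was -0.53, against -2.54 over all of them, that of Rspo3 -2.42, against -3.66, and that of Sfrp2 0.97, against 1.98. Without the cell holding the most Sfrp2 UMIs in each library that of Sfrp2 was 1.10, and 2.60 at a minimum of 4000 UMIs. In the same Chil1 cells chondrocyte markers stood at 3509 CPM in Abcg2-MDS/AML and 9308 CPM in Control, and osteoblast markers at 7699 CPM and 19305 CPM. Their part was not tested.

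Tendon cells and fibroblasts of Abcg2-MDS/AML had more Dkk2. In tendon cells Dkk2 stood at 108 CPM in Abcg2-MDS/AML and 18.3 CPM in Control, a ratio of 5.89 (4.47 to 7.88), and in fibroblasts at 108 CPM and 47.9 CPM, a ratio of 2.26 (1.76 to 2.94). In tendon cells, 2 of 7 members were higher and 2 lower, where 7.38% of genes were higher and 10.4% lower, and in fibroblasts likewise 2 of 7 higher and 2 lower, where 6.52% were higher and 13.3% lower. The other higher members were Sfrp1 in tendon cells, at 44.4 CPM in Abcg2-MDS/AML and 12.3 CPM in Control (ratio 3.61, 2.55 to 5.23, a log2 of 1.85, of 2.64 at a minimum of 4000 UMIs and of 3.14 for cells meeting exactly 1 rule), and Sfrp2 in fibroblasts, at 50.8 CPM and 24.6 CPM (ratio 2.07, 1.45 to 3.01). Wif1 and Frzb were the lower members in both types. Wif1 stood at 238 CPM in Abcg2-MDS/AML and 1094 CPM in Control tendon cells (4.59-fold lower) and at 24.1 CPM and 142 CPM in fibroblasts (5.90-fold lower). Frzb stood at 54.0 CPM in Abcg2-MDS/AML and 197 CPM in Control tendon cells (3.64-fold lower), and at 4.07 CPM and 35.6 CPM in fibroblasts (8.76-fold lower). The fibroblast log2 ratio of Frzb was -3.13, and -3.90 at a minimum of 4000 UMIs and -2.43 with thresholds times 1.5. Markers of other types moved in the same cells. Summed chondrocyte markers stood at 550 CPM in Abcg2-MDS/AML and 3116 CPM in Control tendon cells, and at 205 CPM and 1484 CPM in fibroblasts. Summed Mmp3, Prg4 and Clu stood at 16919 CPM in Abcg2-MDS/AML and 38608 CPM in Control tendon cells. Summed MSC markers were higher, at 3880 CPM in Abcg2-MDS/AML and 1282 CPM in Control fibroblasts and at 1483 CPM and 533 CPM in tendon cells. Their part in these ratios was not tested.

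Free RNA moved with some of these ratios. It held 19.8 CPM of Dkk2 in Abcg2-MDS/AML and 2.99 CPM in Control, a ratio of 6.63. Its ratio was 0.31 for Wif1 and for Sfrp5 and 0.23 for Rspo3, but 0.81 for Frzb, 1.41 for Sfrp4 and 1.47 for Sfrp1. Dkk2 at 108 CPM in Abcg2-MDS/AML tendon cells stood above the 19.8 CPM of its free RNA, as did Wif1 at 1094 CPM in Control tendon cells above 556 CPM. In Abcg2-MDS/AML MSCs, however, Dkk2 at 21.2 CPM was close to its free RNA, and 1 cell held 35.7% of its 14 UMIs. For fibroblasts Wif1 lay below its free RNA in both libraries, at 24.1 CPM against 172 CPM in Abcg2-MDS/AML and 142 CPM against 556 CPM in Control. The part of free RNA in the ratios was not tested.

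**Figure D4:**
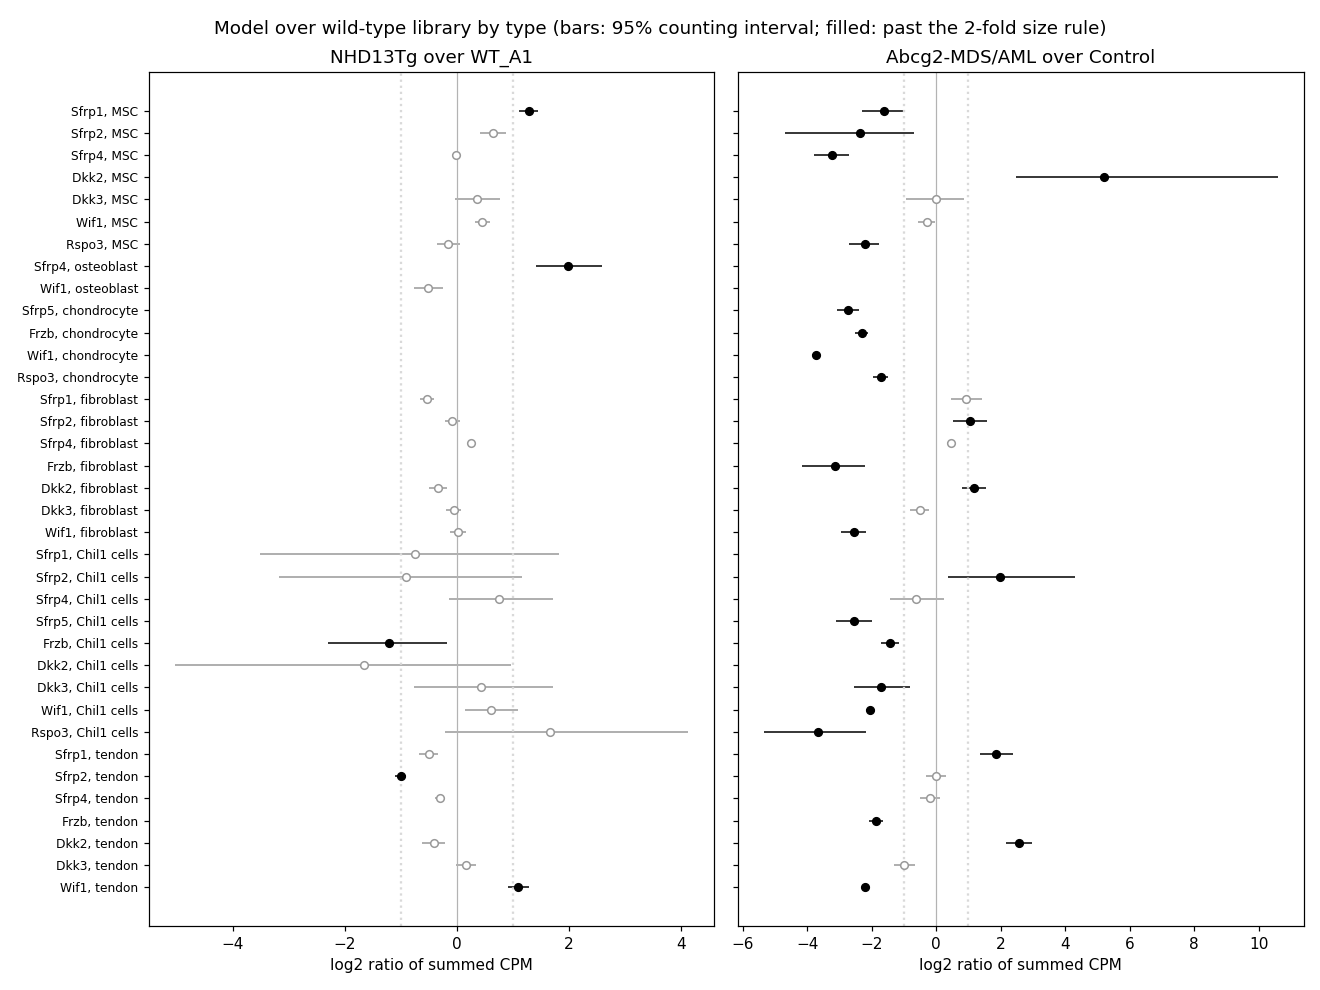
Log2 ratio of CPM, NHD13Tg over WT_A1 and Abcg2-MDS/AML over Control, for each member by stromal type, with 95% counting intervals; filled points passed the 2-fold size rule. In the first pair 5 of 28 combinations pass, and in the second 23 of 32, of which 17 are lower.

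The pairs were compared over 36 combinations of a member and a type present in both. Frzb in Chil1 cells was the 1 combination past the size rule in the same direction, lower at 57.4 CPM in NHD13Tg against 133 CPM in WT_A1 and at 107 CPM in Abcg2-MDS/AML against 288 CPM in Control. Sfrp1 in MSCs and Wif1 in tendon cells passed in opposite directions, 17 combinations passed in 1 pair and 16 in neither. Among the 30 combinations with 20 CPM in some library, these were 3.33% in the same direction, 6.67% in opposite directions, 56.7% in 1 pair and 33.3% in neither. Over all genes of these types the shares were 0.632%, 0.3%, 19.1% and 80% of 25624 combinations. A joint fit of both models over both wild types, with the pair as a block and 1 residual degree of freedom, called 0 members in MSCs, where 0% of 10444 genes were called in either direction (edgeR). It called 0 members in fibroblasts, where 0.00857% of genes were called, 0 in Chil1 cells, where 0.0465% were, and 0 in tendon cells, where 0% were (edgeR). The lowest adjusted p of a member was that of Frzb in MSCs (0.73, log2 of -2.35 ± 0.63, edgeR) and in Chil1 cells (0.36, log2 of -1.23 ± 0.41, edgeR), the 2 combinations with an unadjusted p under 0.05. DESeq2 also called 0 members. In this fit genes with an unadjusted p under 0.05 numbered 440 in MSCs, 580 in fibroblasts, 367 in Chil1 cells and 474 in tendon cells. Frzb was lower in the model library of both pairs in MSCs, at 0.852 CPM in NHD13Tg against 5.11 CPM in WT_A1 and 3.03 CPM in Abcg2-MDS/AML against 13.9 CPM in Control, all below the 20 CPM of the size rule.

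Other Wnt pathway genes, from a list of 75 of which 57 were tested between types, showed where ligands and receptors lay beside the members. Of the 57, MSCs were higher for 21 and lower for 13, where 24.3% and 20.1% of all genes were, and osteoblasts higher for 13 and lower for 15, where 18% and 17.7% were. Chondrocytes were higher for 14 and lower for 11 (19.8% and 13% of all genes), and fibroblasts higher for 10 and lower for 11 (16% and 11.3%). Tendon cells were higher for 13 and lower for 5 (11.9% and 5.56%), and Chil1 cells higher for 6 and lower for 1 (3.75% and 1.02%). Among ligands, Wnt4 was higher in chondrocytes (log2 3.00, edgeR, adjusted p = 3.7e-05), MSCs (2.48, edgeR, adjusted p = 1.6e-05) and osteoblasts (1.66, edgeR, adjusted p = 0.0048), and lower in tendon cells (-4.04, edgeR, adjusted p = 3.4e-05) and fibroblasts (-3.16, edgeR, adjusted p = 7.5e-05). Wnt11 was higher in chondrocytes (1.99, edgeR, adjusted p = 1.1e-05), Chil1 cells (1.44, edgeR, adjusted p = 0.014) and fibroblasts (1.41, edgeR, adjusted p = 5.6e-05), and lower in osteoblasts (-4.03, edgeR, adjusted p = 1.3e-05) and MSCs (-0.86, edgeR, adjusted p = 0.021), while Wnt5a was called in none of the 6 types. Wls and Porcn, which ligands need to leave the cell, were higher in MSCs (0.59 and 1.42, edgeR, adjusted p = 0.0028 and 0.00039). Wls was lower in osteoblasts (-0.65, edgeR, adjusted p = 0.011).

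Among receptors, Fzd1 was higher in MSCs (log2 1.48, edgeR, adjusted p = 8.4e-05) and tendon cells (1.37, edgeR, adjusted p = 0.00048), Lrp6, the co-receptor bound by Dickkopf proteins, in tendon cells (0.65, edgeR, adjusted p = 0.00023) and fibroblasts (0.42, edgeR, adjusted p = 0.0052), and Ryk in osteoblasts (0.60, edgeR, adjusted p = 0.00058). Fzd1 was lower in osteoblasts (-2.20, edgeR, adjusted p = 0.00065) and chondrocytes (-1.88, edgeR, adjusted p = 0.0012). Lrp6 was lower in osteoblasts (-0.79, edgeR, adjusted p = 0.00041) and MSCs (-0.39, edgeR, adjusted p = 0.0086), and Ryk in fibroblasts (-0.32, edgeR, adjusted p = 0.025). Of further secreted modulators, Igfbp4 was higher in MSCs (5.02, edgeR, adjusted p = 4.3e-08) and fibroblasts (2.77, edgeR, adjusted p = 4.3e-05), Cthrc1 in osteoblasts (5.19, edgeR, adjusted p = 7.4e-09), chondrocytes (1.25, edgeR, adjusted p = 0.029) and tendon cells (0.99, edgeR, adjusted p = 0.047), and Notum, an enzyme that removes the lipid from Wnt, in chondrocytes (3.71, edgeR, adjusted p = 9e-06) and Chil1 cells (3.00, edgeR, adjusted p = 0.0072). Igfbp4 was lower in chondrocytes (-3.66, edgeR, adjusted p = 0.0011) and osteoblasts (-1.71, edgeR, adjusted p = 0.027). Cthrc1 was lower in MSCs (-5.40, edgeR, adjusted p = 1.1e-06) and Chil1 cells (-2.84, edgeR, adjusted p = 0.042). Notum was lower in MSCs (-4.66, edgeR, adjusted p = 1.5e-05) and fibroblasts (-2.68, edgeR, adjusted p = 0.00078). Of genes known as targets or feedback, Ccnd1 was higher in chondrocytes (3.18, edgeR, adjusted p = 1.1e-08) and lower in MSCs (-3.20, edgeR, adjusted p = 1.1e-08). Myc (1.57, edgeR, adjusted p = 0.00017) and Dact1 (1.93, edgeR, adjusted p = 6.7e-05) were higher in MSCs, and Dact1 was lower in osteoblasts (-2.29, edgeR, adjusted p = 0.0038). Of the 10 genes tested in this role, MSCs were higher for 5 and lower for 3, where 24.3% and 20.1% of all genes were. Inside the cell, Ctnnb1, which encodes beta-catenin, was higher in osteoblasts (1.33, edgeR, adjusted p = 8.3e-06), and Tcf7l2 (1.24, edgeR, adjusted p = 3.2e-05) and Gsk3b (0.76, edgeR, adjusted p = 0.00015) in MSCs. Ctnnb1 was lower in fibroblasts (-0.54, edgeR, adjusted p = 0.011) and tendon cells (-0.47, edgeR, adjusted p = 0.035), and Tcf7l2 in chondrocytes (-0.72, edgeR, adjusted p = 0.043). Cthrc1 in fibroblasts, lower by 2.17-fold and 5.62-fold, was the 1 listed gene past the size rule the same way in both pairs, at 56.2 CPM in NHD13Tg against 122 CPM in WT_A1 and 23.4 CPM in Abcg2-MDS/AML against 131 CPM in Control. Passing it in opposite directions were 3 combinations. Wnt4 in MSCs stood at 380 CPM in NHD13Tg against 117 CPM in WT_A1 and 46.9 CPM in Abcg2-MDS/AML against 94.3 CPM in Control. Porcn in MSCs stood at 40.7 CPM in NHD13Tg against 19.2 CPM in WT_A1 and 10.6 CPM in Abcg2-MDS/AML against 26.0 CPM in Control, and Cthrc1 in Chil1 cells at 155 CPM against 27.7 CPM and 6.97 CPM against 24.0 CPM in the same libraries.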

How the data were processed

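Single-cell 3' RNA libraries of sorted bone marrow stromal cells were analysed, 1 per group. The authors deposited UMI counts for each gene in each barcode as whole numbers, with no normalization and no restriction to cells. Cell Ranger 3.1.0 and Seurat 3.2.3 are the tools named in the submitters' processing notes. The genome build is not given in the sources used here. Barcodes were kept as cells at 2000 UMIs, 500 genes and 10% mitochondrial UMIs, and placed by the type rules given above. No doublet caller was run; instead the top 5% of cells by UMIs were left out, or cells meeting several rules, as alternatives.

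UMIs were summed per type and library. Sums were tested with edgeR 4.0.16 (TMM, filterByExpr, quasi-likelihood, Benjamini-Hochberg over all genes) in R 4.3.3, with DESeq2 1.42.0 as an alternative, and the procedure was tested on simulated data. Types were tested with the libraries of different genotypes serving as replicates, with 10 residual degrees of freedom. Where nothing says that libraries came from separate animals, p-values of the type test measure how far differences between types varied across these libraries. The block takes out each library's own level. In the joint fit the difference of model over wild type is set against its variation between the pairs. There edgeR draws the variance of each gene toward that of all genes. With 1 residual degree of freedom that variance rests largely on other genes, so these p-values do not measure the spread of a single gene between the pairs. Intervals are at the 95% level: exact Poisson for levels, Clopper-Pearson for shares and conditional binomial for ratios. Shares were also computed analytically with each cell thinned to 2000 UMIs. The labels carry no replicate numbers, so samples are paired by experiment and not by number. Members, lists and tests were chosen with earlier results of these data known. Named genes were the members, the 3 genes most alike to each, the 3 genes of highest mean CPM in each pathway role (ligand secretion had 2 genes), and pathway genes past the size rule alike in both pairs. Python 3.11.15, numpy 2.4.6, scipy 1.17.1, pandas 2.3.3 and matplotlib 3.10.9 were used. Of the 9 members, 5 had a window in the RefSeq promoter table.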

Additional observations from a re-analysis of the deposited data

Results flagged for a closer look

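Sfrp1 in MSCs moved in opposite directions in the pairs, with a log2 ratio of 1.28 for NHD13Tg over WT_A1 and -1.63 for Abcg2-MDS/AML over Control, a difference of 2.91. Wif1 in tendon cells did likewise, with 1.10 for NHD13Tg over WT_A1 and -2.20 for Abcg2-MDS/AML over Control, a difference of 3.29. Each pair has 1 library per group, so neither difference was tested. Beside the first, the MSCs of Abcg2-MDS/AML had 7222 CPM of summed MSC markers against 31028 CPM in Control, and those of NHD13Tg 34514 CPM against 30760 CPM in WT_A1. Beside the second, free RNA held 239 CPM of Wif1 in NHD13Tg against 157 CPM in WT_A1 and 172 CPM in Abcg2-MDS/AML against 556 CPM in Control. Their part in these differences was not tested.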

How the results depend on the processing

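Of the 31 calls between types, 16 kept their call under each alternative run, and of 527 refits of single calls 59 were no longer past the threshold and 0 reversed. Leaving out 1 library, the number of lower calls ranged from 6 (without NHD13Tg) to 11, against 12, and was 7 without Control; higher calls ranged from 16 to 18, against 19. With no replicate block, 17 were higher and 8 lower. No member was called in models over wild types except 1, Sfrp5 in Chil1 cells, with no filter on low counts; a library could not be left out there, since no residual degree of freedom remains. In the NHD13 pair, higher combinations numbered 3, and 5 at a 1.5-fold or 1 at a 3-fold size rule. Lower ones numbered 2, but 0 at a minimum of 1000 UMIs, with thresholds times 1.5 or at 3-fold, and 4 from 5 CPM. They numbered 1 at a minimum of 4000 UMIs, without the top 5% of cells or with exactly 1 rule met. The number was also 1 without the cell holding the most UMIs of the gene in each library. The Abcg2 pair's 6 higher and 17 lower stayed within 1.5 times. Sfrp2 in MSCs of the Abcg2 pair, on 3 UMIs, reversed to a log2 ratio of 0.91 with thresholds divided by 1.5; the cause was not tested. Of 218 refits of single ratios, 32 others moved beyond their counting interval without reversing. Members under 20 CPM rest on few UMIs, which widens their intervals.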

Other observations

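Cells that met none of the 6 type rules, 25.8% of cells in NHD13Tg and 32.3% in WT_A1, with 45.7% in Abcg2-MDS/AML and 53.9% in Control, held much of some members. They held 51.3% of the Wif1 UMIs in NHD13Tg and 60.4% in WT_A1, with 44.3% in Abcg2-MDS/AML and 55.2% in Control. For Frzb the shares were 60.2% in NHD13Tg and 64.6% in WT_A1, above the share of cells, and 37.4% in Abcg2-MDS/AML and 37.8% in Control, below it. For Dkk2 they were 3.17% in NHD13Tg and 5.72% in WT_A1, with 24.8% in Abcg2-MDS/AML and 17.8% in Control. For Sfrp1 they were 5.50% in NHD13Tg and 6.80% in WT_A1, with 37.0% in Abcg2-MDS/AML and 12.2% in Control. For Rspo3 they were 26.4% in NHD13Tg and 51.2% in WT_A1, with 30.4% in Abcg2-MDS/AML and 4.89% in Control. Those of Dkk3 are given with this gene above. The cells meeting no rule carried high Mmp3, Prg4 and Clu, at a sum of 51185 CPM in NHD13Tg and 54735 CPM in WT_A1, with 36424 CPM in Abcg2-MDS/AML and 32372 CPM in Control.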
